A study of Sus scrofa with 67 samples.

Results

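Whole ovary and endometrium, the inner lining of the uterus, were compared on day 9 of the oestrous cycle of the pig. Every library whose label gave one of these tissues and day 9 was taken, which came to 3 of each tissue and 6 of the 66 libraries with counts. They were fitted together over all genes with a common normalization. Of the 25322 Ensembl genes in the table, 14387 had enough counts to be tested, and 9557 of these could be given a symbol. The study sequenced poly-A RNA of the oviduct, endometrium and ovary of gilts, young female pigs, at 7 times of the cycle, to follow how the parts of the reproductive tract change together. Both groups came from untreated Landrace × Yorkshire crossbred gilts, 6 to 8 months old, that had already passed through at least 2 normal cycles, and days were counted from the onset of oestrous behaviour. The ovary of one side was taken whole, so its libraries mix corpora lutea, follicles, stroma and vessels. Endometrium came from the mid part of the uterine horn, separated from the muscle layer, and mixes epithelium, stroma, vessels and immune cells. In such bulk tissue, fewer cells of a type and less RNA per cell cannot be told apart. According to the methods, 3 gilts were used per day, so both tissues are likely to come from the same animals. No label ties a library to a gilt, however, and the p-values measure the spread between these libraries.

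Day 9 lies in the luteal phase. Corpora lutea, which form from the ruptured follicles, then make progesterone from cholesterol that is taken up from lipoproteins or made in the cell, and the first step, the cleavage of the side chain, takes place in the mitochondrion. The endometrium, under progesterone, shows a glandular and luminal epithelium that secretes proteins and transports nutrients into the lumen of the uterus. Toward the end of the cycle the endometrium releases prostaglandin F2α, which ends the life of the corpora lutea. The organs also differ in origin, since the ovary arises from the genital ridge and the uterus from the Müllerian duct, and each keeps transcription factors of its source.

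Total counts per library were 11367278 to 12956387 in the ovary and 9826274 to 10098430 in the endometrium. Levels are given as CPM, that is, counts relative to the library size as scaled by TMM. They are not divided by gene length, so they compare tissues for 1 gene and not genes with each other. A count of 3 stood for 0.253 to 0.333 CPM in these libraries and was taken as the floor of detection, which covers counting error only. The 10 most counted genes held 18.8% ± 1.90 (SD, n = 3) of the counts in the ovary and 10.3% ± 0.0771 (SD, n = 3) in the endometrium. The exact two-sided permutation p for this difference was 0.1, the smallest that 3 libraries against 3 allow. TMM scaling factors, which correct for such differences in makeup, were 0.793 to 0.891 in the ovary and 1.15 to 1.18 in the endometrium. Across genes, correlation of log2(CPM + 1) was 0.974 to 0.990 between libraries of the same tissue and 0.711 to 0.727 between tissues. Defining genes went with the labels. NR5A1 and GATA4, transcription factors of gonadal cells, were at 0 counts in all 3 endometrium libraries, and HOXA10 and HOXA11, of the Müllerian duct, were at 0 counts in all 3 ovary libraries.

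Of the 14387 genes, 8845 (61.5%) differed between the tissues at an adjusted p under 0.05 in the quasi-likelihood test of edgeR, adjusted after Benjamini and Hochberg. Of these DEGs, 4408 (30.6% of genes tested) were higher in the ovary and 4437 (30.8%) in the endometrium, and the median log2 difference over all genes was -0.02. This near-even split rests on the scaling. With library size alone, 2966 DEGs were higher in the ovary and 6827 in the endometrium. The share higher in the ovary thus went from 49.8% to 30.3%, and the median of all genes shifted by -0.44. A difference of at least 8-fold was found for 745 DEGs in the ovary (5.18%) and 1004 in the endometrium (6.98%). The 3 libraries of one tissue all lay above the 3 of the other for 9893 genes (68.8%), so a lack of overlap was common in these data. Genes given below with a call had no overlap unless it is stated.

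**Figure D1:**
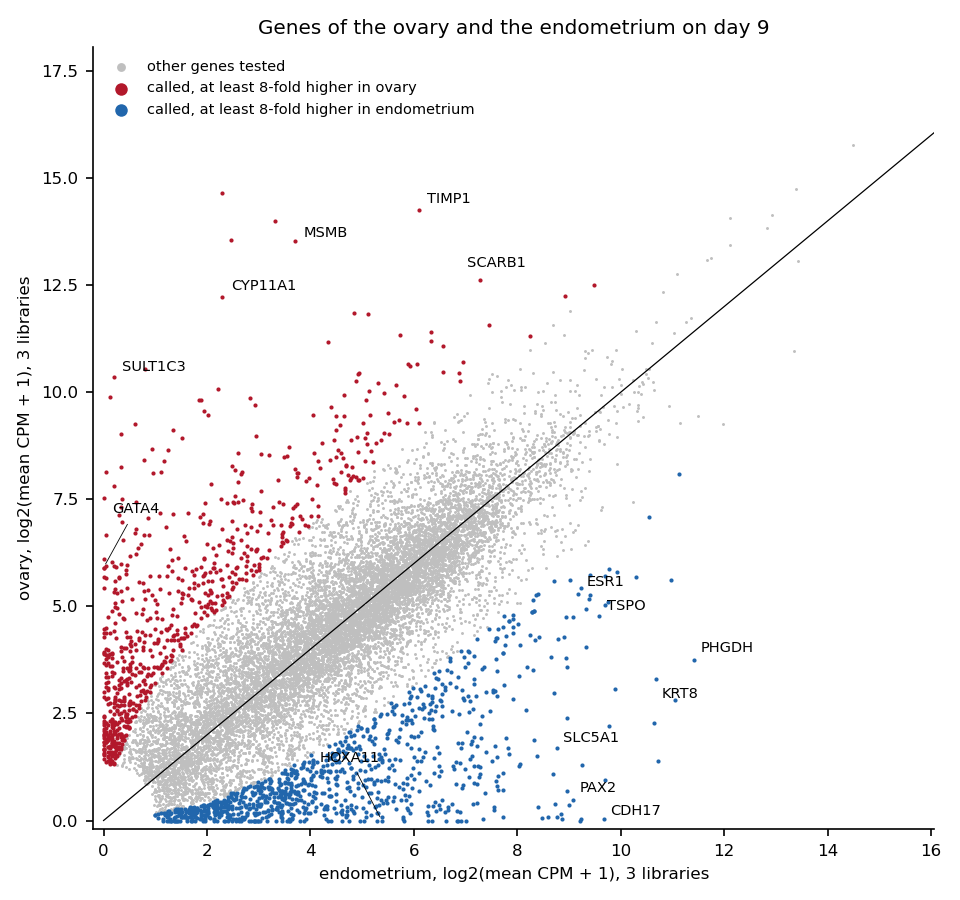
Each point is 1 of 14387 tested genes, placed by the log2(CPM + 1) of its mean over the 3 libraries of endometrium (horizontal) and ovary (vertical) on day 9. The 745 genes at least 8-fold higher in the ovary and the 1004 at least 8-fold higher in the endometrium are coloured, and some genes are named. Genes near 0 in the other tissue, such as GATA4 and HOXA11, stand along the axes, while others, such as SCARB1 and ESR1, were found in both tissues.

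The plot of all genes shows a wide band along the diagonal with genes spread along both axes. Named genes were taken from 16 lists of functions and cell types, of 216 distinct symbols in all, of which 148 could be paired with an identifier and 125 were tested. Of these 125 genes, 72 were higher in the ovary, 39 were higher in the endometrium and 14 passed in neither direction, against 61.5% of all genes that passed in either. Most of the rest were without an identifier, and the others had too few counts for a test.

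Genes of steroid synthesis were higher in the ovary for 9 of the 10 members tested, of 18 listed, with a median log2 difference of 4.98, where 30.6% of all genes were higher in that tissue. CYP11A1, the side-chain cleavage enzyme that turns cholesterol into pregnenolone, stood at 4556, 4602 and 5311 CPM in the ovary libraries and 4.25, 4.31 and 3.20 CPM in the endometrium libraries. All ovary libraries were far above all endometrium libraries, with a log2 difference of 10.26 ± 0.261 (SE, adjusted p = 1.3e-07). SCARB1, the receptor through which luteal cells take cholesterol from high-density lipoprotein, was at 5754, 6012 and 7136 CPM in the ovary and 154, 146 and 159.8 CPM in the endometrium. It was expressed in both tissues and was higher in every ovary library, by 5.36 ± 0.201 on the log2 scale (adjusted p = 2.66e-07). FDXR, which passes electrons to the side-chain cleavage system, was 4.15 ± 0.175 higher (log2, adjusted p = 4.1e-07), and CYB5A, cytochrome b5, 3.02 ± 0.190 (adjusted p = 3.16e-06).

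CYP17A1, the enzyme of androgen synthesis found in theca cells, varied more between ovaries, with 40.7, 55.5 and 116 CPM against 0.443, 0.169 and 0.692 CPM in the endometrium. The lowest ovary library was still above every endometrium library, and the log2 difference was 7.31 ± 0.571 (adjusted p = 1.09e-05). NR5A2, a nuclear receptor that drives steroidogenic genes in granulosa and luteal cells, was at 925, 905 and 862 CPM in the ovary and 2.21, 3.29 and 2.25 CPM in the endometrium, a log2 difference of 8.43 ± 0.222 (adjusted p = 1.3e-07). Its relative NR5A1, also called steroidogenic factor, was at 35.5, 40.3 and 50.2 CPM in the ovary and at 0 counts in every endometrium library, which makes it at least 162-fold higher in the ovary at a floor of 3 counts per library.

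TSPO went the other way and was the only tested gene of steroid synthesis higher in the endometrium. This gene, for a protein of the outer mitochondrial membrane that binds cholesterol, was at 32.7, 23.8 and 22.8 CPM in the ovary and 775, 776 and 738 CPM in the endometrium. Every endometrium library was above every ovary library, by 4.85 ± 0.193 on the log2 scale (adjusted p = 3.17e-07). The remaining gene of the list, HSD17B7, which acts in both oestradiol and cholesterol synthesis, was at 98.4, 129.6 and 90.1 CPM in the ovary and 37.9, 33 and 44.4 CPM in the endometrium, with a log2 difference of 1.46 (adjusted p = 0.000149). Its call was lost when the libraries of all days shared 1 estimate of the spread.

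Genes of cholesterol synthesis were higher in the ovary for 17 of 19 members tested (30.6% of all genes), with a median log2 difference of 1.75. The endometrium held counts of each of them. HMGCS1, which makes the HMG-CoA that enters the pathway, was at 2161, 2609.7 and 2869 CPM in the ovary and 324, 365 and 219 CPM in the endometrium. In log2 terms the difference was 3.07 ± 0.237 (adjusted p = 1.01e-05). Its values did not overlap between tissues. Later steps showed both larger and smaller differences. TM7SF2, a sterol reductase, was 3.996 ± 0.207 higher on the log2 scale and DHCR7, which finishes the synthesis of cholesterol, 3.80 ± 0.293 (adjusted p = 1.11e-06 and 1.01e-05). LSS, which closes the sterol ring, was 1.44 ± 0.213 higher (adjusted p = 0.000435). FDPS, farnesyl diphosphate synthase, was the only member higher in the endometrium, at 1482, 1281 and 2059 CPM against 965, 1094 and 1119 CPM in the ovary. For this gene the log2 difference was -0.60 ± 0.202 (adjusted p = 0.0295). It lost its call without endometrium library 3 and without ovary library 1 or 2 (adjusted p = 0.0692, 0.128 and 0.0704). FDFT1, which takes the next step to squalene, was at 398, 469.9 and 457 CPM in the ovary and 365, 369.5 and 364 CPM in the endometrium without a call (adjusted p = 0.103). In the fit over all days, 8 of the 19 stayed higher in the ovary, namely HMGCS1, MVK, IDI1, LSS, TM7SF2, NSDHL, DHCR7 and ACAT2, and the call of SQLE was among those lost. With library size alone, SC5D and SREBF2 lost their calls, and SREBF2 also did so without endometrium library 3 (adjusted p = 0.0596).

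Among gonadotrophin receptors and the inhibin family, 6 of 7 members tested were higher in the ovary, against 30.6% of all genes (median log2 difference 3.61). LHCGR, the receptor for the luteinizing hormone that maintains the corpus luteum, was at 31.3, 28.7 and 55.4 CPM in the ovary and 0.0890, 0.253 and 0.259 CPM in the endometrium. The endometrium libraries were at or under the floor, and the fitted log2 difference was 7.49 ± 0.441 (adjusted p = 2.19e-06). INHA, the alpha subunit of inhibin, a product of granulosa cells that restrains follicle-stimulating hormone, was at 283, 421 and 210.5 CPM in the ovary and 0, 0.169 and 0.605 CPM in the endometrium. Its log2 difference was 10.14 ± 0.549 (adjusted p = 1.39e-06). FST, follistatin, which binds activin, was found in both tissues and was 3.60 ± 0.284 higher in the ovary (log2, adjusted p = 1.14e-05), at 275, 389 and 175 against 22.8, 24.5 and 21.7 CPM. AMHR2, the receptor of anti-Müllerian hormone, was at 6.39, 7.48 and 4.22 CPM in the ovary and 0.708, 0.591 and 1.38 CPM in the endometrium. This amounted to a log2 difference of 2.74 ± 0.392 (adjusted p = 0.000358). The relaxin relative INSL3, made by theca cells, was at 3.89, 17 and 9.0 CPM in the ovary and had 1 count over the 3 endometrium libraries, a ratio of 345 with a 95% Poisson interval of 62 to 13634 that covers counting error only. VEGFA, the growth factor of blood vessels, was 1.90 ± 0.161 higher in the ovary (log2, adjusted p = 1.72e-05), and IGFBP5, a binding protein of insulin-like growth factors, overlapped between the tissues (adjusted p = 0.168). IGFBP5 passed as higher in the endometrium without endometrium library 3 (adjusted p = 0.042) and with library size alone.

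Some markers of follicles and oocytes differed between the ovary libraries themselves. FSHR, the receptor for follicle-stimulating hormone on granulosa cells, was under the filter and at 0 counts in every endometrium library, and stood at 0.278, 19 and 1.55 CPM in ovary libraries 1, 2 and 3. ZP3, a protein of the coat of the oocyte, was at 0.741, 5.04 and 1.22 CPM in the same order, and BMP15, a growth factor secreted by the oocyte, at 0.741, 1.48 and 0.444 CPM, again with 0 counts in the endometrium. Ovary library 2 was highest in all of these, in 7 of the 12 oocyte genes with counts in the ovary and in 11 of the 19 genes of cholesterol synthesis. Library 3 was highest in 6 of the 10 of steroid synthesis and 6 of the 7 of endothelium. The share of all genes that were highest in each library is not given here, so nothing about the lists is read from these counts. Only 3 of the 13 oocyte genes with an identifier had enough counts to be tested. KIT, a receptor kinase that oocytes, blood-forming cells and mast cells carry, was higher in the ovary at 573, 550.4 and 429.6 against 57.9, 43 and 34.4 CPM. The log2 difference was 3.52 ± 0.229 (adjusted p = 3.83e-06). GDF9, the growth factor of the oocyte, was higher in the endometrium, which holds no oocytes, at 39, 39.2 and 36.9 CPM against 19.5, 20.4 and 15 CPM. This was a log2 difference of -1.06 ± 0.158 (adjusted p = 0.000448). SYCP3, a protein of meiotic chromosomes, was likewise higher there, with 12.5, 12.2 and 11.8 CPM against 6.48, 6.17 and 4.44 CPM. On the log2 scale the tissues differed by -1.08 ± 0.204 (adjusted p = 0.0017). Whether the counting used strand is not given in the sources used here, so reads of a gene and of one that overlaps it on the other strand could not be told apart.

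**Figure D2:**
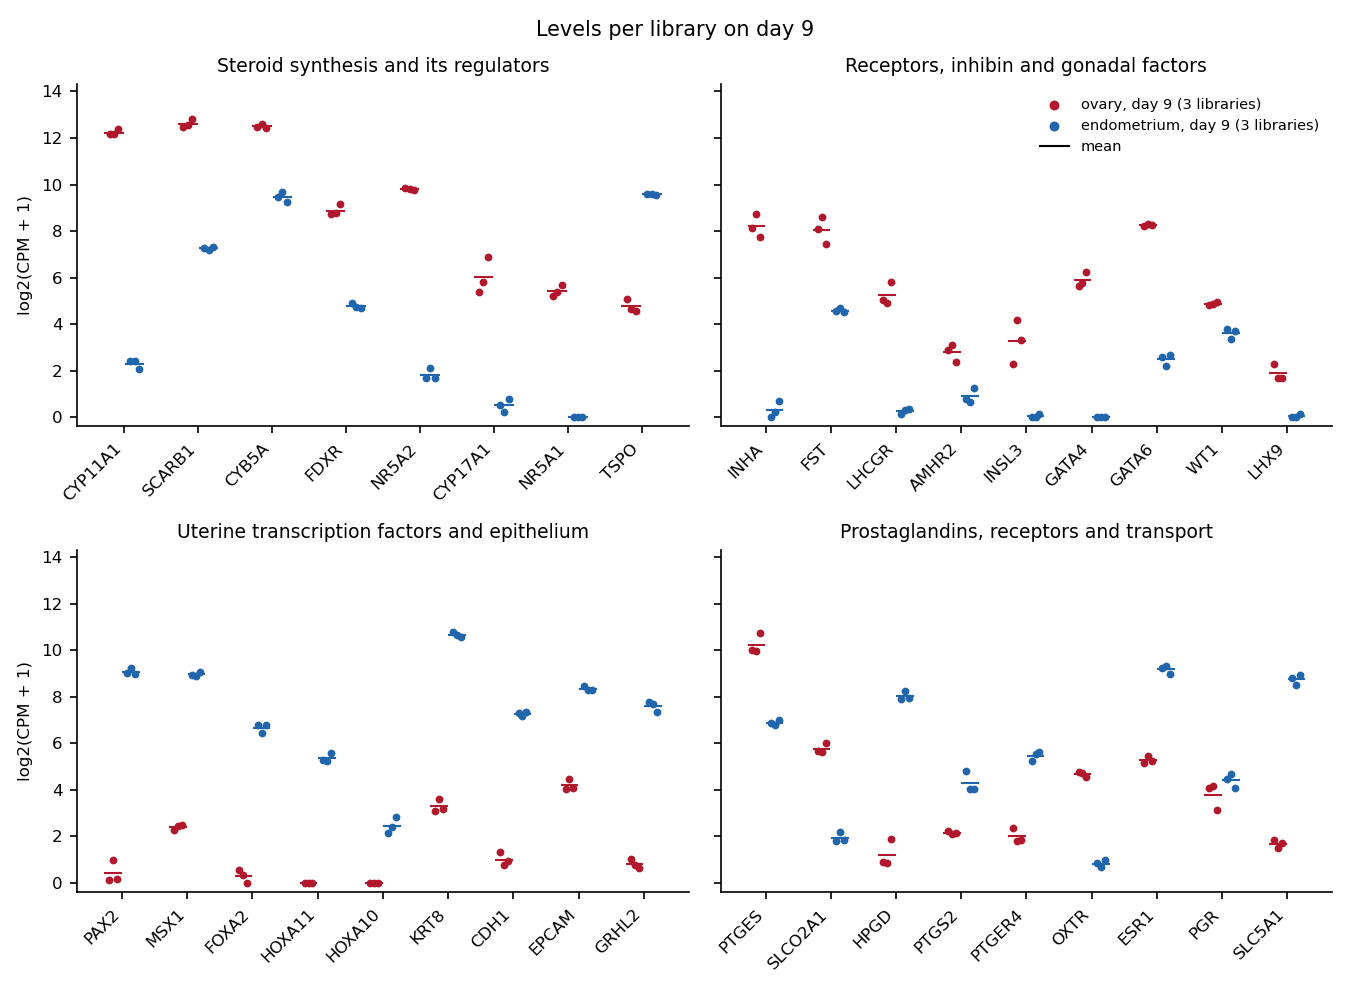
Levels of single genes in the 6 libraries of day 9, as log2(CPM + 1), for genes of steroid synthesis, of the gonad, of Müllerian duct and epithelium, and of prostaglandins, receptors and glucose transport. Each point is 1 library (3 of ovary, 3 of endometrium) and the line is their mean. Of the genes shown, CYP11A1, KRT8 and HPGD are among those far apart between tissues while the points of PGR overlap.

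Transcription factors of the gonad and of the Müllerian duct lay mostly on opposite sides, as the panels of single libraries show. All 5 gonadal factors tested were higher in the ovary, where 30.6% of all genes were, with a median log2 difference of 6.11. NR0B1, of the same list, was under the filter and lay the other way at low counts. It was at 0.648, 0.609 and 0.222 CPM in the ovary and 1.417, 1.267 and 0.778 CPM in the endometrium. GATA4, a zinc-finger factor of granulosa and theca cells, was at 48.6, 54 and 74.2 CPM in the ovary and at 0 in the endometrium, at least 227-fold. Its relative GATA6 was at 301, 316 and 308 CPM in the ovary and 4.96, 3.63 and 5.27 CPM in the endometrium. Between tissues it differed by 6.06 ± 0.183 on the log2 scale (adjusted p = 1.58e-07). LHX9, needed for the growth of the early gonad, was at 3.89, 2.17 and 2.22 CPM and had 1 count over the endometrium libraries, a ratio of 95.8 (17.2 to 3785). WT1, which also marks uterine stroma and was the only tested gene of the mesothelium list, was found in both tissues at 26.9, 28.2 and 29.99 and 12.7, 9.21 and 11.9 CPM. The tissues differed by 1.33 ± 0.170 on the log2 scale (adjusted p = 0.000192).

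In the list of Müllerian duct and uterine factors, 6 of 7 genes tested were higher in the endometrium, where 30.8% of all genes were, and the median log2 difference was -8.55. HOXA11, a homeobox gene that gives the uterus its identity along the tract, was at 38.1, 37.1 and 46.9 CPM in the endometrium and 0 counts in the ovary, at least 139.9-fold. HOXA10, its neighbour, was at 3.37, 4.31 and 6.14 CPM against 0 counts, at least 15.8-fold. PAX2, a factor of the duct and its epithelium, was at 523, 596 and 507 CPM in the endometrium and 0.0930, 0.957 and 0.111 CPM in the ovary. The gene differed by -10.32 ± 0.456 on the log2 scale (adjusted p = 4.87e-07). Of the ovary libraries, only library 2 stood above the floor for PAX2. FOXA2, which uterine glands need to form, was at 107, 84.7 and 108 CPM against 0.463, 0.261 and 0 CPM. Ovary over endometrium, the log2 difference was -8.55 ± 0.382 (adjusted p = 5.05e-07). MSX1, a homeobox factor of the uterine epithelium, was at 492, 471 and 529 against 3.80, 4.43 and 4.55 CPM. The fitted log2 difference came to -6.87 ± 0.170 (adjusted p = 1.3e-07). TBX2, a T-box factor expressed in many mesenchymal tissues, was the exception and was higher in the ovary, at 67.8, 70.3 and 97 against 29.5, 31.8 and 29.1 CPM. Ovary over endometrium, the log2 difference was 1.38 ± 0.165 (adjusted p = 0.000134).

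Epithelial genes were higher in the endometrium for 10 of 11 members (30.8% of all genes), with a median log2 difference of -6.29. Their summed level was 3097 to 3345 CPM in the endometrium and 42.3 to 53.7 CPM in the ovary. KRT8, a keratin of simple epithelia, was at 1772, 1591 and 1536 CPM in the endometrium and 7.41, 11.3 and 7.88 CPM in the ovary. In log2 terms the difference was -7.52 ± 0.243 (adjusted p = 1.83e-07). CDH1, the adhesion protein E-cadherin, was at 156, 142 and 160.3 against 1.48, 0.696 and 0.888 CPM. The log2 difference was -7.21 ± 0.235 (adjusted p = 1.83e-07). GRHL2, a factor that maintains epithelial junctions, was at 215, 206 and 159 against 1.02, 0.696 and 0.555 CPM. The log2 difference was -7.96 ± 0.247 (adjusted p = 1.69e-07). The smallest of the 10 differences was that of EPCAM, an adhesion protein of epithelial cells, with 15.6, 21 and 15.8 CPM in the ovary. The estimate of its log2 difference was -4.21 ± 0.171 (adjusted p = 3.51e-07). PROM1, prominin, a protein of apical membranes, overlapped, at 3.81, 7.01 and 4.58 CPM in the endometrium and 8.34, 5.39 and 8.55 CPM in the ovary (adjusted p = 0.158).

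Genes that the luteal endometrium is known to secrete or to use for transport were less uniform. Of 10 tested, 7 were higher in the endometrium (30.8% of all genes) and 2 in the ovary (30.6%), with a median of -1.42. SLC5A1, the sodium-coupled carrier that moves glucose, was at 448, 359 and 490.2 CPM in the endometrium and 2.59, 1.83 and 2.22 CPM in the ovary. For this gene the log2 difference was -7.61 ± 0.226 (adjusted p = 1.46e-07). PIGR, which carries antibodies across epithelia, was at 26.7, 20.5 and 28.4 against 0.278, 0.261 and 0.222 CPM, with every ovary library at or under 3 counts (-6.56 ± 0.282, adjusted p = 4.47e-07). RBP4, the carrier of retinol, was at 45, 24.7 and 17.9 CPM in the endometrium and 0.741, 1.13 and 0.666 CPM in the ovary. Its log2 difference was -5.07 ± 0.435 (adjusted p = 1.89e-05). There were 2 members higher in the ovary. CTSL, the protease cathepsin L, was at 37.8, 45.1 and 26.2 against 7.53, 7.01 and 7.61 CPM. This was a log2 difference of 2.30 ± 0.220 (adjusted p = 3.54e-05). LCN2, a lipocalin that binds iron carriers of bacteria, was at 41.2, 17 and 26.7 against 2.66, 3.38 and 2.51 CPM. This was a log2 difference of 3.31 ± 0.346 (adjusted p = 5.98e-05). SPP1, osteopontin, a ligand of integrins, overlapped, and ovary library 1 stood apart at 87, 29.1 and 27.3 CPM for libraries 1 to 3 against 34.6, 29.1 and 35.5 CPM (adjusted p = 0.29). IGF1 and FGF9, growth factors of the uterine stroma and epithelium, were higher in the endometrium (log2 -1.46 ± 0.217 and -0.89 ± 0.194, adjusted p = 0.000447 and 0.0037), but both lost their call when all days shared 1 estimate of the spread.

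**Figure D3:**
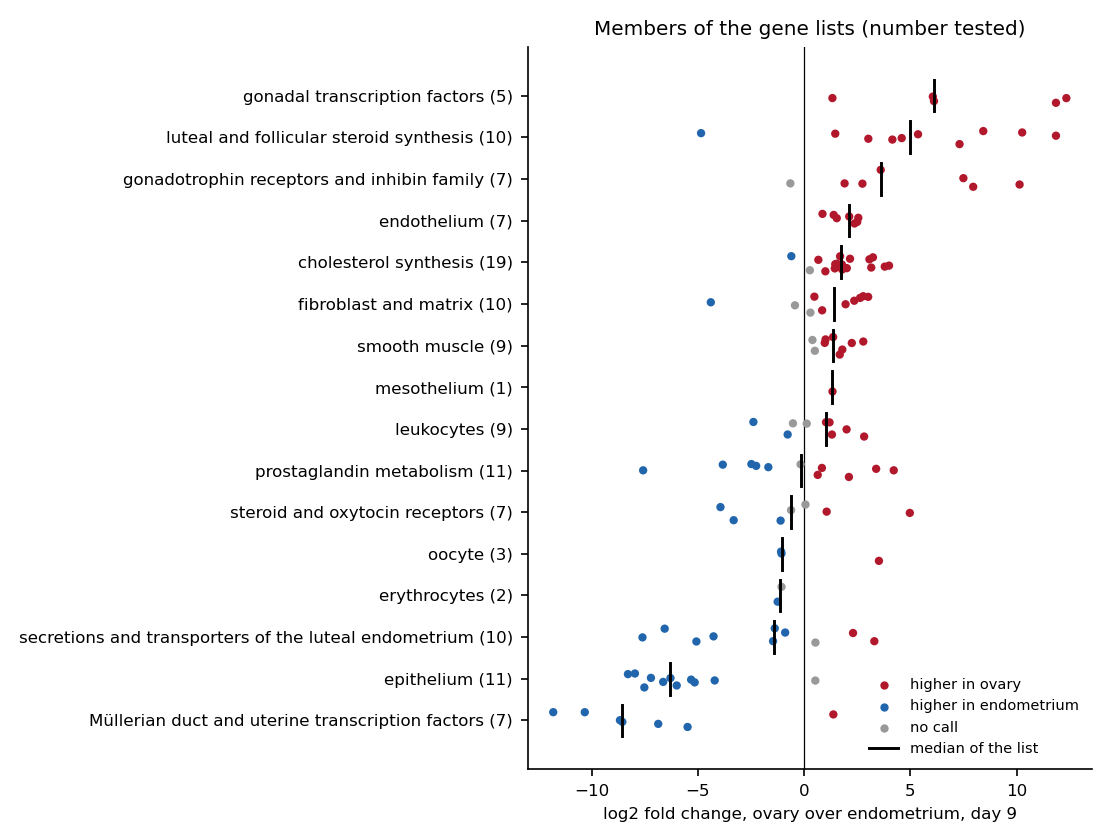
Log2 fold change, ovary over endometrium, of each tested member of the 16 gene lists on day 9, with the median of each list as a bar. Members of the gonadal factors lie on the side of the ovary, those of the Müllerian factors and epithelium mostly on the side of the endometrium, and prostaglandin metabolism is split between both.

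Of 7 receptors for steroid hormones and oxytocin that were tested, 3 were higher in the endometrium and 2 in the ovary, shares near those of all genes (30.8% and 30.6%), and 2 had no call. ESR1, the alpha oestrogen receptor, was at 602, 638 and 497 CPM in the endometrium and 34.5, 42.5 and 36.3 CPM in the ovary. Its log2 difference was -3.94 ± 0.171 (adjusted p = 4.59e-07). GPER1, a membrane receptor that responds to oestrogen, was at 77.1, 90.3 and 94.7 against 7.50, 7.83 and 11.1 CPM. On the log2 scale the tissues differed by -3.31 ± 0.190 (adjusted p = 1.9e-06). Neither overlapped. PGR, the progesterone receptor, overlapped, at 21.3, 24.4 and 16 CPM in the endometrium and 15.7, 16.8 and 7.66 CPM in the ovary (log2 difference -0.61 ± 0.297, adjusted p = 0.104), and passed with library size alone. OXTR, the oxytocin receptor, was higher in the ovary, at 26.4, 25.5 and 22.5 CPM against 0.797, 0.591 and 0.951 CPM. The tissues differed by 4.97 ± 0.232 on the log2 scale (adjusted p = 6.52e-07). NR3C1, the glucocorticoid receptor, was higher in the ovary (1.06 ± 0.189, adjusted p = 0.00126).

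Of the 11 prostaglandin genes tested, 5 were higher in the ovary (30.6% of all genes) and 5 in the endometrium (30.8%). The substrate is freed by PLA2G4A, a phospholipase, and turned over by PTGS2, the inducible cyclooxygenase, and both were higher in the endometrium. PLA2G4A was at 81.4, 78.2 and 97 against 25.3, 25.7 and 29 CPM. The fitted log2 difference came to -1.68 ± 0.140 (adjusted p = 1.56e-05). PTGS2 was at 26.8, 15.1 and 15.6 against 3.61, 3.22 and 3.44 CPM. Ovary over endometrium, the log2 difference was -2.48 ± 0.274 (adjusted p = 8.15e-05). PTGES, which makes prostaglandin E2, was higher in the ovary at 1018, 997 and 1687 against 116, 109.7 and 128 CPM. The log2 difference was 3.39 ± 0.242 (adjusted p = 6.44e-06). SLCO2A1, the carrier that brings prostaglandins into cells, was at 49.6, 48 and 63.6 CPM in the ovary and 2.48, 3.55 and 2.59 CPM in the endometrium. This amounted to a log2 difference of 4.22 ± 0.213 (adjusted p = 9.65e-07). HPGD, the dehydrogenase that inactivates them inside the cell, went the other way, at 0.833, 0.783 and 2.67 CPM in the ovary and 241, 301 and 245 CPM in the endometrium. Between tissues it differed by -7.58 ± 0.378 on the log2 scale (adjusted p = 9.26e-07). The carrier and the dehydrogenase, both parts of prostaglandin clearance, were each low in the tissue where the other was high. Receptors for prostaglandin E2 were divided too, with PTGER2 and PTGER4 higher in the endometrium (-2.26 ± 0.290 and -3.83 ± 0.241, adjusted p = 0.000197 and 3.2e-06) and PTGER3 in the ovary (2.11 ± 0.493, adjusted p = 0.00546). The small ovarian excess of PTGS1 and PTGES2 (log2 0.84 and 0.64) was lost with library size alone and in the fit over all days, where the call of PTGS2 was lost as well. PTGS1 also lost its call without endometrium library 2 or 3 or ovary library 1 or 3, with adjusted p up to 0.0886.

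Genes of vessels, muscle and matrix were mostly higher in the ovary. All 7 endothelial genes tested were higher there, against 30.6% of all genes (median log2 difference 2.12). Their summed level was 958 to 1399 CPM against 259.9 to 265 CPM in the endometrium. KDR, the main receptor for VEGF, was at 427, 335 and 501 CPM in the ovary and 70.6, 86.2 and 58.8 CPM in the endometrium. This amounted to a log2 difference of 2.55 ± 0.207 (adjusted p = 1.34e-05). PECAM1, an adhesion protein between endothelial cells, was at 337, 254 and 308 against 65.1, 65.9 and 75.7 CPM. This was a log2 difference of 2.12 ± 0.153 (adjusted p = 6.71e-06). Smooth muscle genes were higher in the ovary for 7 of 9 (30.6% of all genes), with a median of 1.37, and for 4 of 9 in the fit over all days, where MYH11, CNN1 and ACTG2 lost their calls. DES, the muscle filament desmin, was at 59.4, 56.1 and 59.5 CPM in the ovary and 9.47, 7.68 and 8.21 CPM in the endometrium. Between tissues it differed by 2.78 ± 0.146 on the log2 scale (adjusted p = 1.16e-06). ACTA2, the actin of smooth muscle, was at 476, 567 and 394 against 163, 156 and 131 CPM. On the log2 scale the tissues differed by 1.68 ± 0.174 (adjusted p = 5.74e-05), a call lost when the oviduct libraries were fitted as well. How much of the endometrial level came from remaining myometrium was not tested.

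Fibroblast and matrix genes were higher in the ovary for 7 of 10 (30.6% of all genes). COL3A1, a fibrillar collagen, was at 17397, 12287 and 21644 CPM in the ovary and 2886, 3619 and 6771 CPM in the endometrium (log2 difference 1.95 ± 0.362, adjusted p = 0.00159), a wide spread in both tissues. FN1, fibronectin, was 2.78 ± 0.299 and PDGFRA, a receptor of mesenchymal cells, 2.36 ± 0.184 higher (adjusted p = 7e-05 and 1.09e-05). LUM, lumican, which orders collagen fibrils, was the only member higher in the endometrium, at 481, 553 and 592 against 28.7, 24.8 and 24 CPM (-4.39 ± 0.163, adjusted p = 2.57e-07). DCN, its relative decorin, overlapped (adjusted p = 0.116) and passed as higher in the endometrium with library size alone and without ovary library 1 (adjusted p = 0.0498). COL1A2 and COL6A3, also collagens, passed by a small margin (adjusted p = 0.0328 and 0.0395) and overlapped, and both lost their calls with library size alone and in the fit over all days. Without 1 library, COL1A2 kept its call only when endometrium library 3 or ovary library 2 was left out (adjusted p up to 0.11 in the others) and COL6A3 only when ovary library 2 was (up to 0.147).

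Of 9 leukocyte genes, 5 were higher in the ovary (30.6% of all genes) and 2 in the endometrium (30.8%), and in the fit over all days 2 and 1 were. CD14, a receptor of monocytes and macrophages, was at 42.3, 43.7 and 51 CPM in the ovary and 6.55, 5.32 and 7.44 CPM in the endometrium. The gene differed by 2.82 ± 0.180 on the log2 scale (adjusted p = 3.39e-06). TYROBP, a signalling adaptor of myeloid and natural killer cells, was at 22.2, 13.9 and 31.1 against 5.67, 6.25 and 4.84 CPM. The tissues differed by 1.998 ± 0.297 on the log2 scale (adjusted p = 0.000451). CD79B, part of the B cell receptor, was higher in the endometrium (-2.39 ± 0.429, adjusted p = 0.00132), as was CD2, an adhesion protein of T cells (-0.77 ± 0.278, adjusted p = 0.0383). PTPRC, the leukocyte antigen CD45, overlapped at 23.8, 14.2 and 11.7 CPM in the ovary and 12.5, 15.4 and 17.8 CPM in the endometrium (adjusted p = 0.72). The macrophage genes CSF1R and CD68, the second of which overlapped, the granule gene NKG7 of cytotoxic cells and the T cell gene CD2 lost their calls in the fit over all days. Without 1 library, CSF1R lost its call when endometrium library 2 or 3 or ovary library 3 was left out (adjusted p up to 0.0799). CD68 kept its call only without ovary library 2 (up to 0.102 in the others), and CD2 only without library 1 of either tissue (up to 0.108). HBB, haemoglobin of red cells, was 1.25 ± 0.259 higher on the log2 scale in the endometrium (adjusted p = 0.00292), with 67.1, 32 and 45.1 CPM against 20.003, 18.1 and 22.8 CPM. It lost its call in the fit over all days, and ALAS2, an enzyme of haem synthesis in red cells, had no call (adjusted p = 0.0578) but passed as higher in the endometrium without ovary library 3 (adjusted p = 0.00784) and with library size alone.

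Outside the lists, genes were named by a rule of size among the DEGs of at least 8-fold without overlap and with 10 or more counts in all 3 libraries of the tissue where they were higher. On the side of the ovary, SULT1C3, a sulfotransferase, stood at 1172, 1114 and 1647 CPM against 0, 0.169 and 0.259 CPM. MRO, maestro, a gene of gonadal somatic cells, was at 223, 217 and 404 CPM and had 1 count over the endometrium libraries, a ratio of 9754 (1751 to 385277). TMPRSS7, a membrane serine protease, and CLIC6, an intracellular chloride channel protein, had 0 counts in the endometrium and were at least 261-fold and 224-fold higher in the ovary, at 55.3, 53.5 and 94.3 and 40.3, 38 and 96.1 CPM. Ovary library 3 was the highest for all of these. TIMP1, an inhibitor of metalloproteinases, was 8.18 ± 0.243 higher (log2, adjusted p = 1.46e-07), at 18134, 21167 and 19790.4 against 69.5, 64.7 and 69 CPM. MSMB, a secreted protein known from the prostate, was 9.93 ± 0.446 higher (adjusted p = 5.23e-07) but spread widely, at 6929.6, 11948 and 16400.2 CPM against 11.2, 10.8 and 14 CPM. Genes without a symbol were among those named too. ENSSSCG00000003599 was at 203, 249 and 101 CPM against 0 counts, at least 709.9-fold, and ENSSSCG00000026109 had the highest mean CPM, 25781 ± 4641 (SD, n = 3) against 3.87 ± 4.0 in the endometrium.

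On the side of the endometrium, CDH17, a cadherin of intestinal epithelium, was at 762, 585 and 1113 CPM and had 1 count over the ovary libraries, a ratio of 25668 (4607 to 1013850.0). CYP26A1, the enzyme that breaks down retinoic acid, was at 658, 710.4 and 423 CPM, also with 1 count in the ovary, a ratio of 18689.5 (3354 to 738196). SLC26A4, the anion exchanger pendrin, was at 397, 466 and 536 CPM, with a ratio of 14596 (2619.7 to 576515). CWH43, which acts on lipid anchors of proteins, was at 325, 240.4 and 495 CPM with a ratio of 11068 (1987 to 437183). These intervals are wide because each rests on 1 count in the ovary. TMC5, a transmembrane channel-like protein, and ATP13A4, a transporting ATPase, had 0 counts in the ovary and were at least 442-fold and 394-fold higher in the endometrium. Among genes of high CPM, PHGDH, the first enzyme of serine synthesis, was at 3332, 2813 and 2101 against 10.8, 10.17 and 16.3 CPM (log2 -7.79 ± 0.319, adjusted p = 3.58e-07). TSPAN1, a tetraspanin of epithelial cells, was at 2470.1, 2288 and 1615 against 6.95, 6.78 and 4.33 CPM. On the log2 scale the tissues differed by -8.45 ± 0.310 (adjusted p = 2.45e-07). ODC1, the first enzyme of polyamine synthesis, was at 2125, 2638 and 1909.6 against 275, 291 and 251 CPM. The fitted log2 difference came to -3.03 ± 0.185 (adjusted p = 2.67e-06). ENSSSCG00000020659 was at least 2028-fold higher, with 563, 291 and 914 CPM against 0 counts, and ENSSSCG00000010991 was at 1925, 1264 and 1849.9 against 1.67, 0.957 and 2.22 CPM.

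Genes with 10 or more counts in every library of one tissue and at most 3 in every library of the other numbered 194 for the ovary and 291 for the endometrium. Of these, 37 and 60 were at 0 counts throughout the other tissue. From the lists, NR5A1, LHCGR, LHX9, INSL3 and GATA4 were among the first and PIGR, HOXD10, HOXA11 and HOXA10 among the second. At this depth these genes were not detectable in the other tissue, which is not proof of absence.

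To ask which differences of day 9 were kept through the cycle, ovary and endometrium were tested on each of the 7 days in a fit of 44 libraries and 16557 genes. Days 0 and 3 had 4941 (29.8%) and 4572 (27.6%) DEGs, days 6, 9 and 12 had 7458 (45%), 7504 (45.3%) and 7710 (46.6%), and days 15 and 18 had 7214 (43.6%) and 5367 (32.4%). Of the 745 and 1004 genes with an 8-fold difference on day 9, this fit called 739 (99.2%) and 998 (99.4%) the same way on day 9 itself, against 23.3% and 22% of all genes, from which nothing is read because the libraries are the same. The libraries of the other days were not used to choose them. Of the 745 higher in the ovary, 708 (95%) were also higher there on day 6, where 23.6% of all genes were, and 694 (93.2%) on day 12, against 25% of all genes. On day 0, at oestrus, 462 (62%) were, against 15.2% of all genes, and on day 3 487 (65.4%), against 14%. On day 18, shortly before the next oestrus, 506 (67.9%) were higher in the ovary, against 17.4%.

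Of the 1004 genes higher in the endometrium, 948 (94.4%) were also higher there on day 6, against 21.5% of all genes, and 920 (91.6%) on day 12, against 21.6%. On day 0 there were 696 (69.3%), against 14.7%, and on day 3 758 (75.5%), against 13.7%. Day 18 had 701 (69.8%), against 15.1%. On day 15, 616 (82.7%) of the ovary genes and 712 (70.9%) of the endometrium genes kept their direction, against 24% and 19.6% of all genes. On that day 12 and 11 were called the opposite way. Opposite calls numbered 10 and 14 on day 18, 5 and 14 on day 0, 3 and 0 on day 3, and 0 on days 6 and 12. For both sets the share that kept its direction was thus highest in the luteal days 6 and 12 next to day 9. The days differed in their number of libraries, with fewer on day 3 and more on days 12 and 15 than on day 9. Calls depend on that number, so the shares do not measure the tissue difference alone.

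The tissue difference itself was then compared between day 9 and day 0 by an interaction term in the same fit. It had changed for 1735 genes (10.5%), toward the ovary for 960 (5.8%) and toward the endometrium for 775 (4.68%), and the count was 1116 without ovary day 0 replicate 1, the library whose removal lowered it the most. Of the 1735, 471 and 618 were DEGs on day 9 and not on day 0, higher in the endometrium and the ovary respectively, while 42 switched from the endometrium to the ovary and 49 the other way. In turn, 117 and 144 were DEGs on day 0 and not on day 9, higher in the endometrium and the ovary respectively. The rest were called the same way on both days or on neither. Among the lists, 20 genes had changed, 10 in each direction.

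**Figure D4:**
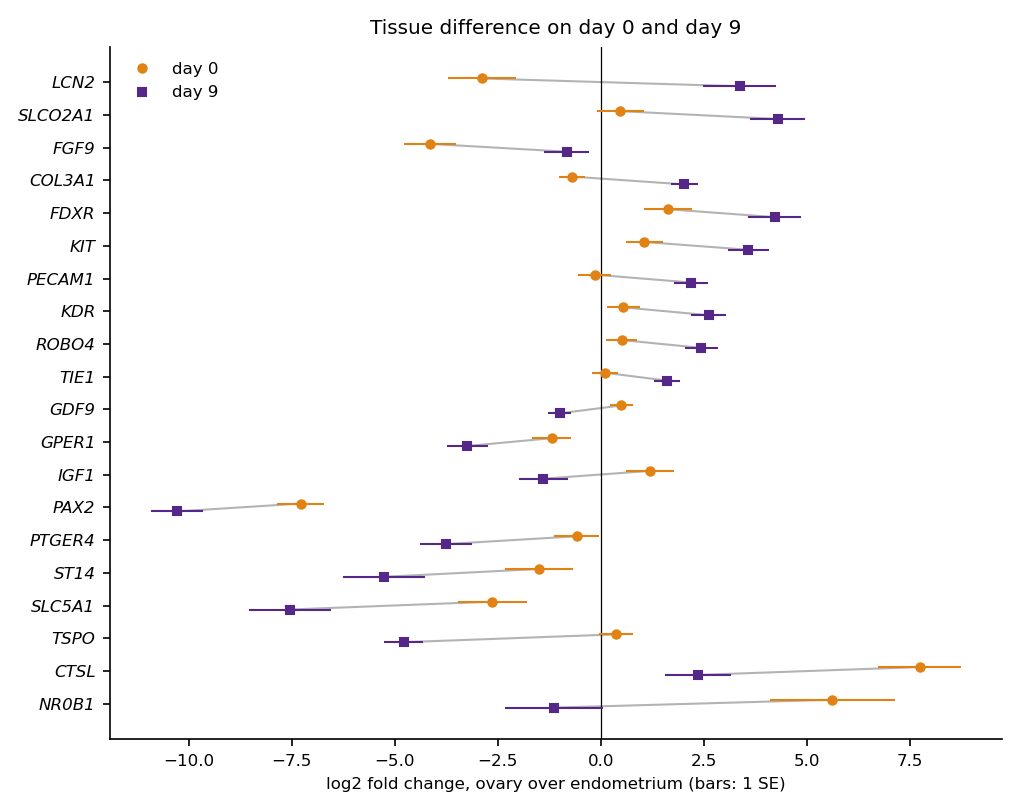
Log2 difference, ovary over endometrium, on day 0 and on day 9 with ± 1 SE from the fit over all days, for the 20 listed genes whose difference changed. TSPO, SLC5A1, PAX2, CTSL and NR0B1 moved toward the endometrium, and LCN2, SLCO2A1, FGF9, COL3A1 and the endothelial genes moved toward the ovary.

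The plot of both days shows that the change came from either tissue. TSPO was at a mean of 74.1 CPM in the ovary and 57.7 CPM in the endometrium on day 0, on a scale common to all 66 libraries, and at 28.2 and 844 CPM on day 9. Its level in the endometrium rose by 3.81 on the log2 scale (adjusted p = 1.14e-06), that in the ovary fell (log2 -1.34, adjusted p = 0.0214), and the tissue difference moved by -5.15 ± 0.611 (adjusted p = 3.86e-06). SLC5A1 rose in the endometrium from 15 to 478 CPM (log2 4.94, adjusted p = 0.000222) and was at 2.39 and 2.36 CPM in the ovary, a change in the difference of -4.91 ± 1.19 (adjusted p = 0.00763). PAX2 rose in the endometrium from 84.6 to 599 CPM (log2 2.77, adjusted p = 4.86e-05), and its tissue difference moved by -3.004 ± 0.826 (adjusted p = 0.0173), which passed in 9 of 12 fits without 1 library.

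LCN2 reversed: it was higher in the endometrium on day 0 (log2 difference -2.89, adjusted p = 0.00823) and higher in the ovary on day 9 (3.37, adjusted p = 0.00228). Its mean in the endometrium was 154 CPM on day 0 and 3.15 CPM on day 9 (log2 -5.67, adjusted p = 0.000149), and the change in the difference was 6.26 ± 1.22 (adjusted p = 0.00134). CTSL changed on the side of the ovary, from 1004 CPM on day 0 to 38.8 CPM on day 9 (log2 -4.64, adjusted p = 0.000647), and the tissue difference moved by -5.37 ± 1.16 (adjusted p = 0.00309). SLCO2A1 moved in opposite directions, up in the ovary (log2 1.91, adjusted p = 0.0201) and down in the endometrium (-1.91, adjusted p = 0.0372), with a change in the difference of 3.82 ± 0.848 (adjusted p = 0.00391).

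Of the endothelial genes, PECAM1, KDR, TIE1 and ROBO4 gained an ovarian excess between these days, as did COL3A1. PECAM1 had no call on day 0 (log2 -0.15, adjusted p = 0.821), and its mean in the endometrium went from 252 to 76.2 CPM (log2 -1.78, adjusted p = 0.0036), a change of 2.34 ± 0.573 in the difference (adjusted p = 0.00811). KDR instead rose in the ovary, from 127 to 449.8 CPM (log2 1.87, adjusted p = 0.00215), a change of 2.07 ± 0.565 (adjusted p = 0.0167), which passed in 10 of 12 fits without 1 library. COL3A1 fell in the endometrium from 14529.8 to 4906 CPM (log2 -1.63, adjusted p = 0.000768) and rose in the ovary from 8861 to 18289.8 CPM (log2 1.10, adjusted p = 0.0144). Its tissue difference moved by 2.73 ± 0.452 (adjusted p = 0.000304).

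**Figure D5:**
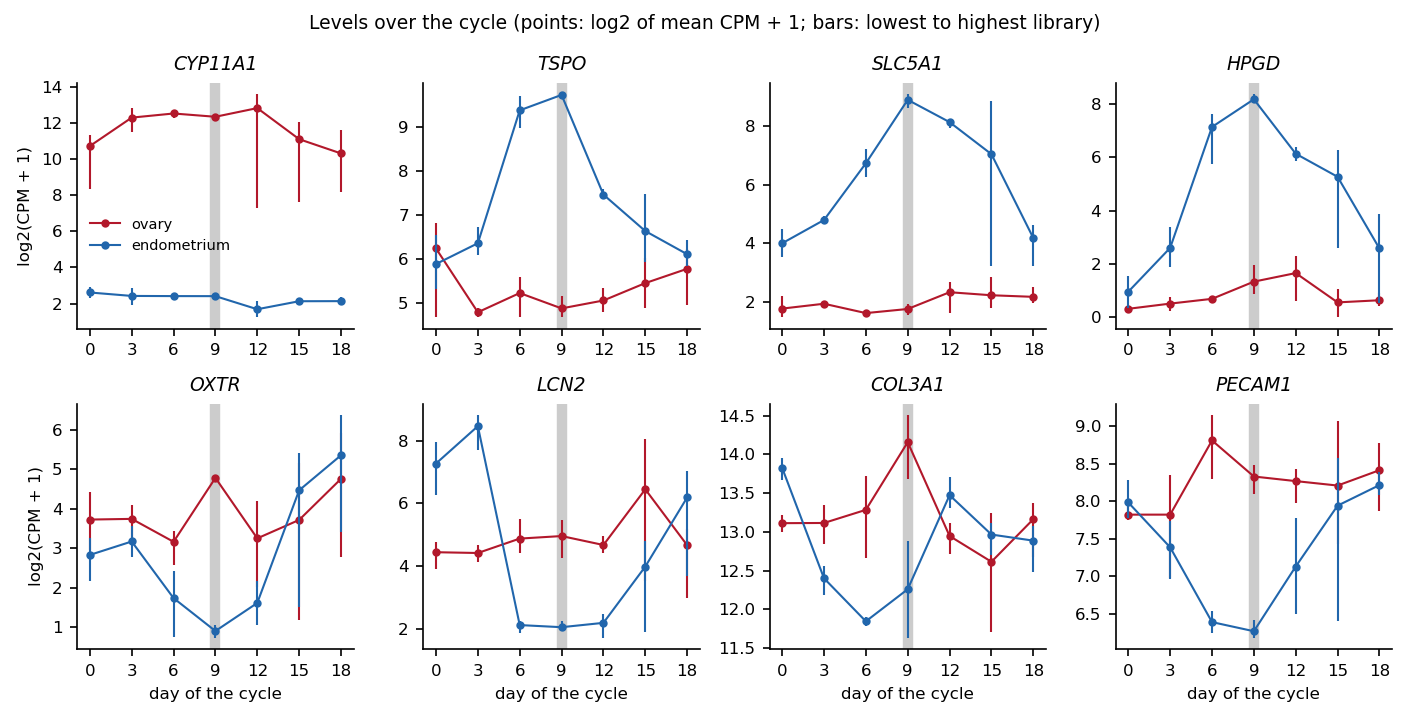
Log2 of mean CPM + 1 in ovary and endometrium on the 7 days of the cycle for CYP11A1, TSPO, SLC5A1, HPGD, OXTR, LCN2, COL3A1 and PECAM1. Bars run from the lowest to the highest library of each tissue and day. Endometrial TSPO, SLC5A1 and HPGD have their highest mean on day 9, and CYP11A1 is higher in the ovary on all 7 days.

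The courses over the cycle place day 9 for these genes. CYP11A1 had a mean of 1677 CPM in the ovary on day 0, 5154 CPM on day 9 and 1264 CPM on day 18. Its tissue difference was not shown to change from day 0 to day 9 (log2 1.97 ± 1.27, adjusted p = 0.347). TSPO in the endometrium had means of 661, 844 and 174 CPM on days 6, 9 and 12. HPGD in the endometrium was at 0.947 CPM on day 0, 290.2 CPM on day 9 and 5.0 CPM on day 18, but its change in the difference did not pass (log2 -5.61 ± 1.99, adjusted p = 0.0652). OXTR in the endometrium had its lowest mean, 0.863 CPM, on day 9 and its highest, 39.9 CPM, on day 18, where the ovary was at 26 CPM. The change of the OXTR difference from day 0 was 4.03 ± 1.43 (adjusted p = 0.0654) and did not pass either.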

How the data were processed

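Poly-A RNA libraries of ovary and endometrium were used from a table of counts per Ensembl gene, which the authors deposited without normalization or pooling. According to the methods and the submitters' processing notes, the first 13 bases of the paired-end reads were removed and reads were mapped with TopHat 2.0.13 to the Sus scrofa 10.2 genome with Ensembl 78. How reads shared by near-identical copies of a gene were counted, and whether strand was used, is not given in the sources used here. Columns were assigned to tissue and day by name. The labels list 67 samples, and 1 endometrium sample of day 12 is not analysed here. Symbols were found for 11804 of the 25322 identifiers, and GZMA, on 2 identifiers, was left out.

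The 6 libraries of day 9 were fitted with edgeR 4.0.16 (R 4.3.3) using filterByExpr, TMM, robust glmQLFit and glmQLFTest, with Benjamini-Hochberg adjustment over all genes tested and a threshold of 0.05. SE is the absolute log2 change over the square root of the F statistic. Other days and the change from day 0 were tested in 1 fit of the 44 libraries of both tissues. The steps were tested on simulated data. A fold against a tissue at 0 counts is a lower bound at 3 counts per library, and with 1 to 3 counts over a tissue the ratio is given with its exact Poisson interval. Fitted values of such genes depend on the prior count. Reads carry no molecular identifiers. Members of the gene lists may be named, and outside them, in each direction, the 10 genes of largest log2 change and the 5 of highest mean CPM among DEGs of at least 8-fold without overlap and with 10 or more counts in all libraries of the tissue where they were higher, those without a symbol only 1 for each measure. The lists and tests were chosen with earlier results of these data known. Values of some list members are not reported here. Alternatives were DESeq2 1.42.0, its size factors, library size alone, no filter on low counts, other sets of libraries, fits without 1 library at a time, and a replicate block. Figures were drawn with matplotlib 3.10.9.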

Additional observations from a re-analysis of the deposited data

Results flagged for a closer look

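The tissue difference changed from day 0 to day 9, by the interaction term of the fit over all days, for 1735 genes, and 4158 passed an unadjusted p under 0.05. For the 20 listed genes among them, the change in the log2 difference (ovary over endometrium, day 9 minus day 0) was -5.15 for TSPO, -4.91 for SLC5A1, -5.37 for CTSL, -3.004 for PAX2, -3.18 for PTGER4, -6.75 for NR0B1, -3.76 for ST14, -2.59 for IGF1, -2.05 for GPER1 and -1.499 for GDF9. It was 6.26 for LCN2, 3.82 for SLCO2A1, 3.32 for FGF9, 2.73 for COL3A1, 2.59 for FDXR, 2.53 for KIT, 2.34 for PECAM1, 2.07 for KDR, 1.93 for ROBO4 and 1.504 for TIE1. In 12 fits that each left out 1 library of these days, FDXR passed in 2, ST14, IGF1 and GPER1 in 1 each, TIE1 in 6, NR0B1 in 8, PAX2 in 9, KDR and ROBO4 in 10 and GDF9 in 11. NR0B1 had a mean of 0.0604 CPM in the endometrium on day 0, so the size of its change depends on the prior count.

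Among genes with a symbol whose change passed, the 5 that moved the most in each direction were picked after their values were seen. Toward the ovary they were AMCF-II, a chemokine of neutrophils (10.79), ABCC8, a subunit of a potassium channel (9.07), OLFM2 (8.94), FMO1, a monooxygenase (7.44), and LOXL4, which crosslinks collagen (7.29). FMO1 rose in the ovary from a mean of 14.4 to 2319 CPM (log2 7.38, adjusted p = 0.000312) and was at 103 and 103 CPM in the endometrium. ABCC8 and OLFM2 also rose in the ovary (log2 5.17 and 6.58, adjusted p = 0.00344 and 0.000229). AMCF-II and LOXL4 instead fell in the endometrium (log2 -9.48 and -5.30, adjusted p = 0.00625 and 0.00366). Neither had a call in the ovary (adjusted p = 0.552 and 0.0963), where AMCF-II had 6 to 14 counts per library on day 9. Genes that moved the most toward the endometrium were XDH, xanthine dehydrogenase (-14.20), the anion exchanger SLC26A4 (-11.12), the Wnt inhibitor DKK1 (-10.73), the sodium and calcium exchanger SLC24A2 (-10.72) and BDNF, a neurotrophin (-10.68). XDH rose in the endometrium from 0.468 to 428 CPM (log2 9.75, adjusted p = 0.000886) and was back at 1.23 CPM on day 12. Several of these are near 0 counts in a tissue on 1 of the days, so the size of their fitted change depends on the prior count, and SLC26A4 passed in 8 and OLFM2 in 11 of the 12 fits without 1 library. The cause of these changes was not tested.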

How the results depend on the processing

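The count of DEGs, 8845, was 7780 to 9102 without 1 library, 8766 with DESeq2 and 8751 with the replicate block, where PGR and ALAS2 passed as higher in the endometrium and CD2 did not pass. Same-numbered libraries of day 9 correlated at 0.0607 to 0.142 in their deviations (over 0.1 in 2 of 3 numbers), so the numbers were not taken as pairs. Each library of day 9 nevertheless correlated best with its own number, as pairs of unlike numbers ran from -0.121 to 0.0324 on that day. Over all days, 13 of 21 same-numbered pairs were over 0.1. Shared animals are thus possible, and the main test does not use such a pairing. With library size alone, 6827 DEGs were higher in the endometrium. The 1735 changes between days 0 and 9 became 2314 with DESeq2, 3352 with only the libraries of these days, 2720 with the replicate block in those libraries, and 1116 to 1900 without 1 library. Genes seen in 1 tissue only became 113 (ovary) and 193 (endometrium) with at least 20 counts, and 37 and 60 with 0 counts in the other tissue. Fits of 1 day alone gave 4334, 5108 and 7837 DEGs for days 0, 3 and 6, and 5052, 3727 and 3349 for days 12, 15 and 18. In these fits day 3 had more DEGs than days 12 and 15, unlike in the fit over all days, so the order of the days depends on the fit. The difference in the share of the most counted genes was 8.51 percentage points for 10 genes and 13.4 for 100. Directions turned only for genes that had not passed: with library size alone FDFT1, PGRMC1, SYNPO2, PTPRC and FBLN1 were at -0.18, -0.37, -0.0421, -0.31 and -0.15. Without 1 library, SPP1 ranged from -0.20 (without ovary library 1) to 0.82, PGRMC1 from -0.0229 (without endometrium library 2) to 0.18 and PTPRC from -0.21 (without ovary library 1) to 0.33. Over the other values of single genes, 1733 kept direction and side of the threshold, 69 lost a call and 13 gained one. The cause of these shifts was not tested, except that fits with fewer libraries have fewer samples. Genes under the floor of 0.253 to 0.333 CPM were not detectable at this depth.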

Other observations

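The oviduct, the tube between ovary and uterus that also derives from the Müllerian duct, was measured on the same day and is not one of the tissues compared above. Its libraries entered only the common scale of all libraries and an alternative fit that took in every tissue. Its CPM are on a scale common to all 66 libraries. For 608 (81.6%) of the 745 genes at least 8-fold higher in the ovary, the mean of the 3 oviduct libraries lay nearer to the endometrium on the log scale, and the other 137 (18.4%) lay nearer to the ovary. For the 1004 genes at least 8-fold higher in the endometrium, 639 (63.6%) lay nearer to the endometrium and 365 (36.4%) nearer to the ovary. These genes were chosen by the ovary and endometrium alone. The share over all genes is not given here, so nothing about a likeness between tissues is read from these shares. PAX2 was at 53.8, 43.5 and 50.5 CPM in the oviduct libraries and HOXA11 at 0.0941, 0 and 1.02 CPM, while GATA4 was at 2.07, 0.788 and 1.39 CPM and NR5A1 at 0.847, 0.492 and 0.557 CPM.

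CYP11A1 stood at 202, 120.0 and 164 CPM in the oviduct, against a mean of 5154 CPM in the ovary and 4.33 CPM in the endometrium on the same scale. The 14 ovary genes that ranked, under the rule of size, among the 10 of largest log2 change or the 5 of highest mean CPM, with or without a symbol, were found in the oviduct at 1.41% to 5.39% of their ovarian level (median 2.69%), while the whole set of 745 had a median of 9.44%, with quartiles of 4.68% and 20.9%. The 15 endometrium genes of the same ranks ranged from 0.00938% to 34.8% of their endometrial level (median 0.849%). The whole set of 1004 had a median of 52.5%, with quartiles of 12.2% and 190%, so these 15 do not stand for the set. The narrow range of the ovary genes was seen in the data and was not chosen beforehand, and its cause was not tested.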
